A study of Mus musculus with 35 samples.

Results

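The genes described here are the 10 that encode the receptors and SMAD proteins of bone morphogenetic protein (BMP) signaling in the lung. They are Bmpr2, Acvrl1, Eng, Bmpr1a, Smad1, Smad5, Smad9, Smad4, Smad6 and Smad7, taken by gene symbol from the 54532 genes of the deposited table. Each symbol matched 1 gene, and all 10 passed the filter on low counts in every comparison. RNA was sequenced from whole lungs of adult mice, at least 3 months old, of 3 genotypes. Control mice were wildtype B6/129SJ2, and Cav1-KO mice lacked caveolin-1 in all cells (the Cav1(tm1Mls/)J allele). Cav1-RC mice carried a knockout of caveolin-1 with caveolin-1 put back in endothelial cells only. The promoter that drives this reconstitution was not given in the sources used here. Females and males of each genotype were kept for 6 weeks in room air (normoxia) or in 10% oxygen (hypoxia), which gives 12 groups of 3 mice each, except 2 in female Cav1-KO normoxia and 2 in female Cav1-RC normoxia. 34 libraries with a certain group were compared, 16 labelled female and 18 labelled male. In bulk lung RNA, fewer cells of a type and less RNA per cell cannot be told apart.

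BMPs are secreted ligands that bind a pair of type 2 and a pair of type 1 receptor chains on the cell surface. The type 2 receptor phosphorylates the type 1 receptor, which phosphorylates SMAD1, SMAD5 and SMAD9. These receptor-regulated SMADs enter the nucleus together with SMAD4, the partner shared with TGF-β signaling, and switch on target genes such as the Id genes. SMAD6 and SMAD7 are inhibitory SMADs, which are themselves induced by the pathway and damp it. In lung endothelium the type 2 receptor BMPR2, the type 1 receptor ACVRL1 (also called ALK1) and the co-receptor endoglin (Eng) pass on signals of circulating BMP9 and BMP10. Heritable loss of BMPR2, ACVRL1, ENG, SMAD9 or SMAD4 is linked to pulmonary arterial hypertension or to hereditary hemorrhagic telangiectasia.

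Levels are given as FPKM, fragments per kilobase of gene scaled to the number of mapped fragments, as deposited. Differences are log2 fold changes with their standard error from the raw counts, and a gene was called at a Benjamini-Hochberg adjusted p under 0.05 in edgeR's quasi-likelihood test over all genes tested. The first test of each comparison took the mean of the female and the male difference. Counts per library totalled 12425535 to 33343006, and each of the 10 genes had at least 104 counts in every library. Cav1 itself lay between 284 and 394 FPKM in the 12 Control libraries and between 0.461 and 1.13 FPKM in the 11 Cav1-KO libraries. In the 11 libraries labelled Cav1-RC it lay between 0.423 and 1.89 FPKM, overlapping Cav1-KO, so the endothelial reconstitution was not visible in the Cav1 counts of whole lung. Cav1-RC is therefore used as a label only. Whether RNA of the reconstituting gene would be counted at mouse Cav1 was not tested. Sex genes went against the label in 5 libraries. Male Control hypoxia replicate 2 and male Cav1-RC normoxia replicates 1 and 2 had Xist at 749 to 866 CPM (counts scaled to library size) and Y chromosome genes at 0% to 0.435% of the male mean. Female Control normoxia replicate 1 and female Cav1-KO hypoxia replicate 2 had Xist at 426 and 710 CPM, as the label has it, but Y chromosome genes at 1.01% and 6.91% of the male mean, past the limit of 1% that was set. Males and females are named by label. The animal numbers of 12 of the 34 libraries occur in the study's source data for western blots, here called the western blot list. These 12 are every hypoxic library of Cav1-KO of either sex and of male Control, and replicate 1 of female Control normoxia, of female Control hypoxia and of female Cav1-RC normoxia. Hypoxia against normoxia in Cav1-KO, and Cav1-RC against Cav1-KO in hypoxia, therefore set listed against unlisted libraries and cannot be told apart from list membership, and the same holds in males for hypoxia against normoxia in Control and for Cav1-RC against Control in hypoxia. The 14 endothelial marker genes summed to 1048 to 1835 FPKM, with none at 0 in any library.

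Acvrl1 and Eng were the most abundant of the 10 genes per gene length. The mean over 34 libraries was 136 FPKM for both Acvrl1 and Eng, and their ranges of 74.1 to 191 and 78.5 to 246 FPKM overlapped, so these neighbours did not differ beyond their spread. Smad6 followed with a mean of 61.7 FPKM, and the type 2 receptor Bmpr2 with 32.5 FPKM. Smad4 at 24.4 and Smad7 at 21.9 FPKM had overlapping ranges, as had Smad5 at 16.6 and Bmpr1a, a type 1 receptor, at 12.7 FPKM. Smad1 averaged 7.16 FPKM and Smad9 2.43 FPKM. Among the receptor-regulated SMADs, Smad5 made up a median of 63.5% of the summed FPKM, Smad1 26.6% and Smad9 8.91%. The genes differed in how far they varied: the highest library exceeded the lowest by 1.55 times for Smad1 and 1.87 times for Smad5, against 5.13 times for Smad9 and 6.72 times for Smad6.

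**Figure D1:**
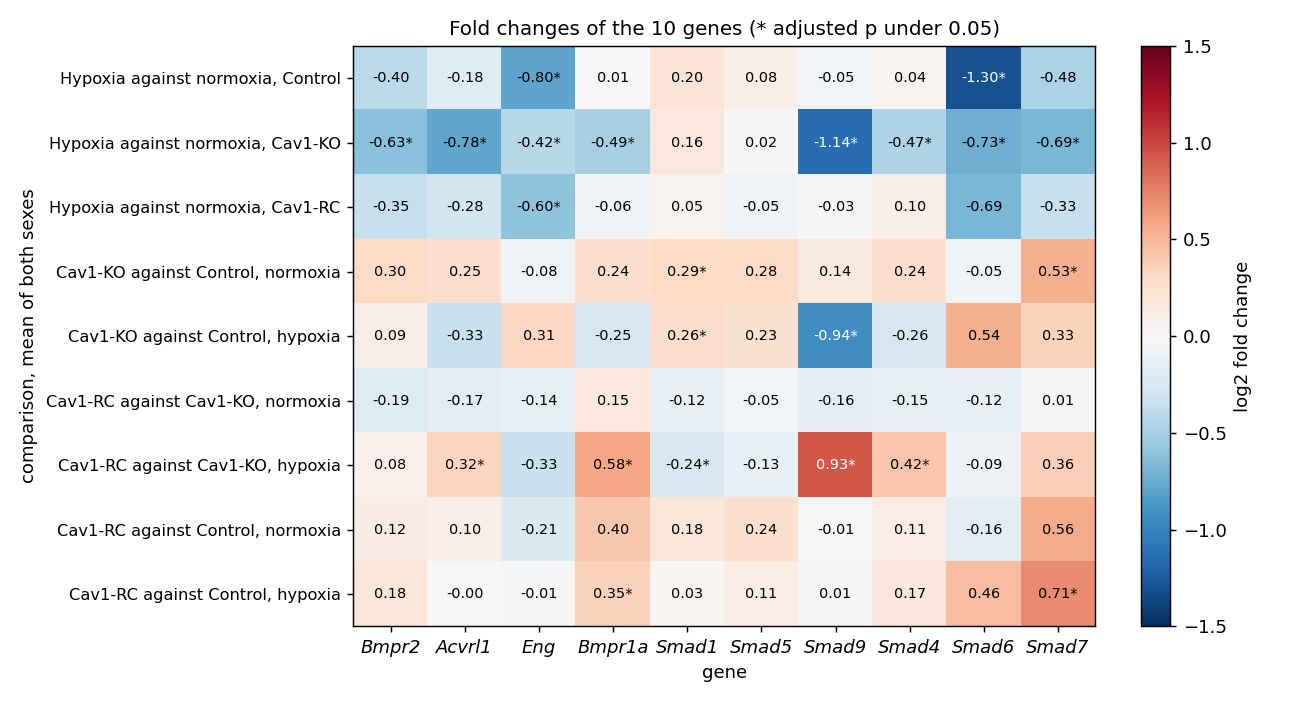
Log2 fold change (colour and number) of the 10 genes (columns) in the 9 comparisons (rows), as the mean of the female and the male difference, with an asterisk at an adjusted p under 0.05. Eng is lower in hypoxia in all 3 genotypes, by 0.42 to 0.80, and 8 of the 10 genes carry an asterisk in hypoxic Cav1-KO lungs.

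Whether chronic hypoxia alters the receptors and SMADs of a lung with normal caveolin-1 was asked in Control mice. Eng and Smad6 were lower in hypoxia, and no other of the 10 genes passed the test. For all genes, 1.44% were called in this comparison. Eng, the co-receptor, read 246, 183 and 209 FPKM in normoxic Control females and 117, 108 and 109 FPKM in hypoxic ones. In males it read 153, 126 and 153 FPKM in normoxia and 93.0, 84.6 and 94.0 FPKM in hypoxia. In each sex the 3 hypoxic libraries lay below the 3 normoxic ones, and Eng fell by 0.80 ± 0.11 on the log2 scale (adjusted p = 0.0036, 6 against 6 libraries). Smad6, the inhibitory SMAD of the BMP branch, read 87.2, 110.3 and 93.2 FPKM in normoxic females and 64.3, 40.8 and 36.2 FPKM in hypoxic ones. In males it read 84.5, 59.7 and 73.1 FPKM in normoxia and 25.5, 22.02 and 25.1 FPKM in hypoxia. Again no hypoxic library reached a normoxic one of its sex. Smad6 fell by 1.30 ± 0.16 on the log2 scale (adjusted p = 0.0014). Smad7, the inhibitory SMAD shared with TGF-β signaling, had a log2 difference of -0.48 ± 0.16 (adjusted p = 0.18), and Bmpr2 of -0.40 ± 0.18 (adjusted p = 0.34). The median of the 10 log2 differences was -0.11, against -0.0024 over all genes tested.

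With a term for the western blot list in 1 fit over all 34 libraries, both genes stayed past the threshold, Eng at -0.80 ± 0.14 (adjusted p = 0.00035) and Smad6 at -1.37 ± 0.26 (adjusted p = 0.0011). That fit also called 4 others of the 10 genes higher in hypoxic Control lungs, Smad4 (0.35 ± 0.10), Bmpr1a (0.29 ± 0.09), Smad1 (0.28 ± 0.08) and Smad5 (0.26 ± 0.08), with adjusted p from 0.0143 to 0.026 and 18.6% of all genes called. Eng and Smad6 were called in the Control comparison in each of the 12 fits that left out 1 library. In males alone, with 16% of all genes called, Eng (-0.66 ± 0.13, adjusted p = 0.020) and Smad6 (-1.58 ± 0.15, adjusted p = 0.0034) fell and Smad1 rose by 0.38 ± 0.10 (adjusted p = 0.040). The 3 hypoxic male Control libraries are all listed and the 3 normoxic ones are not. Leaving out 1 library kept the male call of Smad6 in 6 of 6 fits, that of Eng in 3 of 6 and that of Smad1 in 0 of 6. In females alone, none of the 10 genes was called by edgeR on these groups alone, 2 had an unadjusted p under 0.05, and 0.0175% of all genes were called. The fit with the list term called 3 in females and 2 in males, beside 9.01% and 2.74% of all genes.

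**Figure D2:**
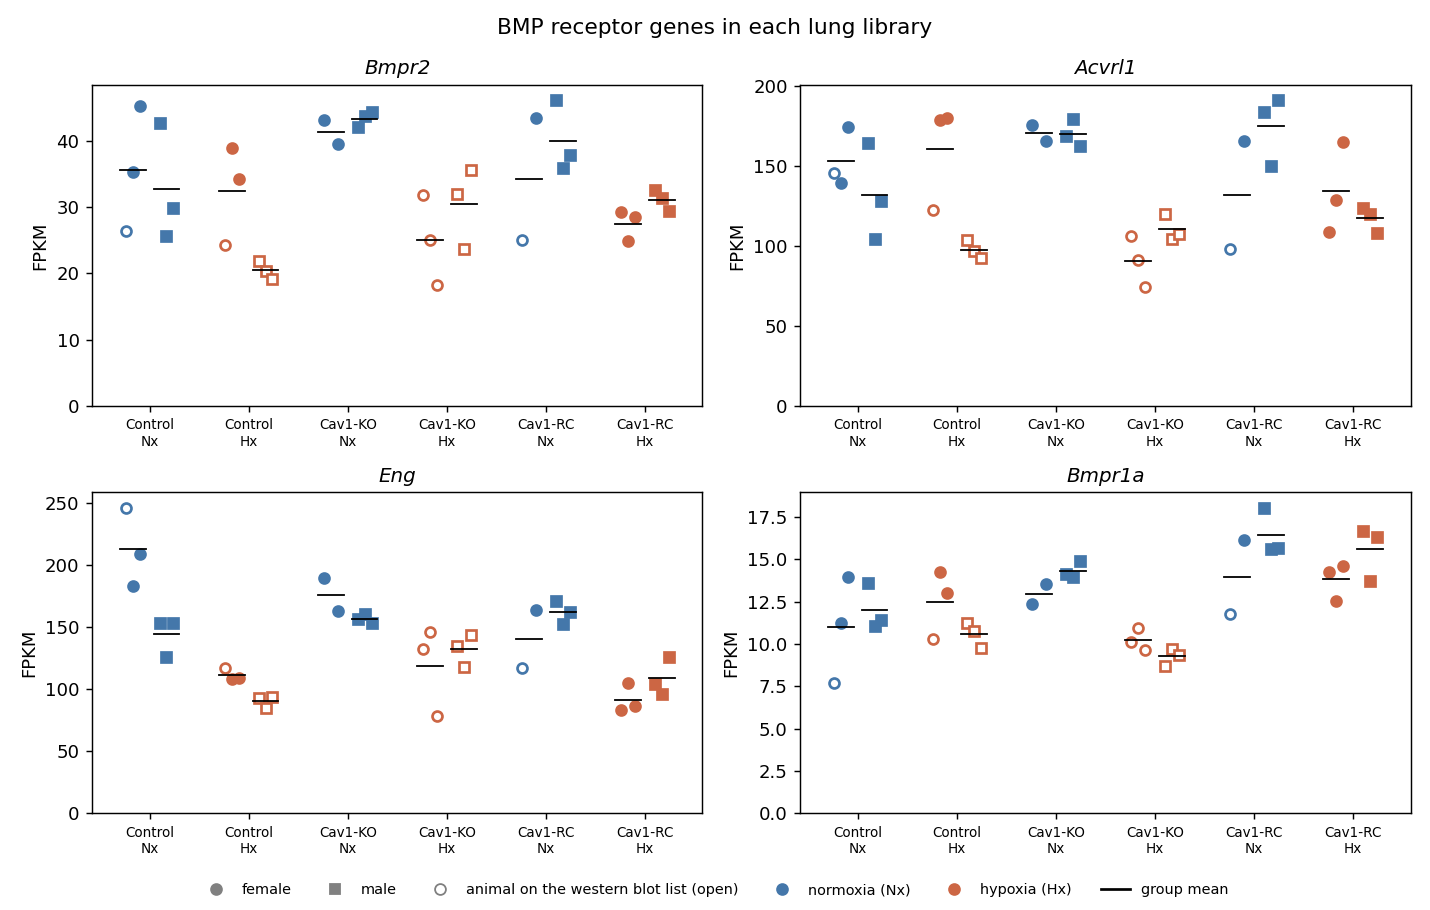
FPKM (vertical axes, from 0) of the receptor genes Bmpr2, Acvrl1, Eng and Bmpr1a in each library by genotype and oxygen level, with circles for females, squares for males, open symbols for animals on the western blot list and lines for group means. Eng in hypoxic Control libraries, 84.6 to 117 FPKM, lies below all normoxic Control libraries, 126 to 246 FPKM.

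Since Eng and Smad6 moved together, the RefSeq sequences upstream of their starts are shown. The 250 bases before the annotated start contain no annotated exon for either gene. Capitals mark matches on either strand to 4 motifs: GGCGCC and GTCT, which SMAD proteins are known to bind, and ACGTG and GCGTG, the cores that hypoxia-inducible factors are known to bind. They are printed 5′ to 3′ on the strand of the gene, from GRCm38.p6, at chr2:32646345-32646594 (plus strand) for Eng and chr9:64022060-64022309 (minus strand) for Smad6.
Eng: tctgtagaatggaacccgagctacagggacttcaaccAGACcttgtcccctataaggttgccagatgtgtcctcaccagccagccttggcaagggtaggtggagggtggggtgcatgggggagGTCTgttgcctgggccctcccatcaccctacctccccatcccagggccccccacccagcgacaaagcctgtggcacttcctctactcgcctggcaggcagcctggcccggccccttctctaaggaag
Smad6: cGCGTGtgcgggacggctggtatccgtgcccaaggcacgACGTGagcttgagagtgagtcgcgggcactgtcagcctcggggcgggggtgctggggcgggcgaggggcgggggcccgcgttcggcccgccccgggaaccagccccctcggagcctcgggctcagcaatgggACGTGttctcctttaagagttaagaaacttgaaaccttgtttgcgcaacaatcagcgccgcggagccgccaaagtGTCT

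The Eng sequence held GTCT or its reverse complement AGAC 2 times and none of the 3 other motifs. The Smad6 sequence held ACGTG 2 times, GCGTG 1 time and GTCT 1 time, and no GGCGCC. Of 32817 RefSeq promoters of the same length, 82.9% held GTCT, 28.1% GCGTG, 16.6% ACGTG and 9.59% GGCGCC on either strand. A match describes the letters of this window only. Of the 10 genes, 7 had an entry in the promoter table.

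**Figure D3:**
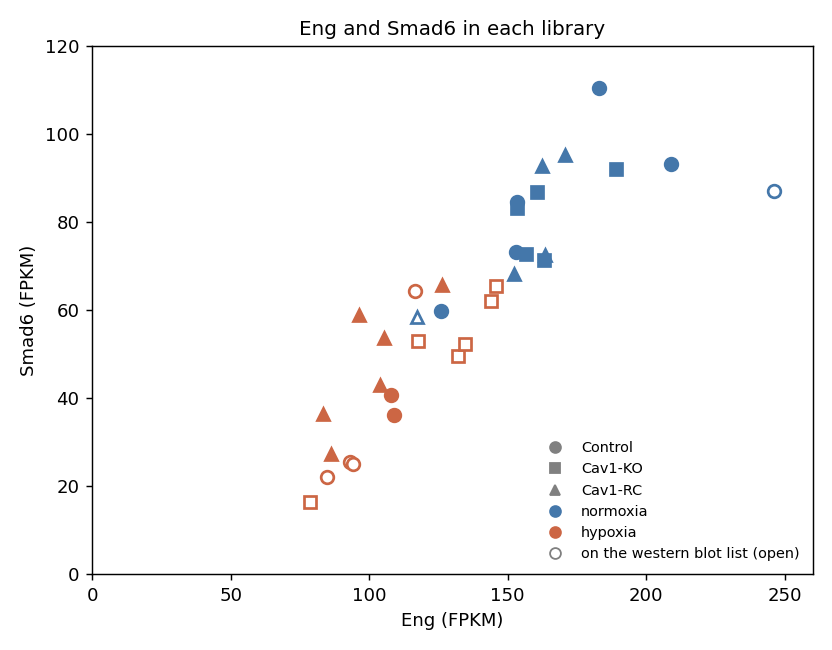
Eng (horizontal axis, FPKM) against Smad6 (vertical axis, FPKM) in each of the 34 libraries, with shape for genotype, colour for oxygen level and open symbols for the western blot list. Hypoxic libraries sit toward the lower left, and libraries with higher Eng have higher Smad6 (r = 0.88 for log2 library-size-scaled counts, not for the FPKM drawn).

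Eng and Smad6 were also each other's closest gene. Among 19869 other genes, the one with the highest correlation of log2 library-size-scaled counts with Eng over 34 libraries was Smad6 (Pearson r = 0.88), and the reverse held too. Over the 22 libraries outside the western blot list, Eng and Smad6 had a Pearson r of 0.907 (permutation p = 1e-05, the smallest that 1e+05 permutations can give) and a Spearman rho of 0.907 (permutation p = 1e-05). Without the 2 libraries farthest from the median of Eng, r was 0.868, and over the 12 listed libraries it was 0.876. This was 1 of 45 pairs of the 10 genes (adjusted p = 0.000225). These libraries share groups that differ in oxygen level, in which both genes differ. Next in order after Smad6, Eng was most like Tox2 (r = 0.845) and Fmo1 (r = 0.842), and Smad6 most like Dll4 (r = 0.855), a Notch ligand of endothelium, and Cd300lg (r = 0.848).

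In Cav1-KO mice, 8 of the 10 genes were lower in hypoxia and none was higher. This stood against 61.7% of all genes called in the same comparison, which set 6 listed against 5 unlisted libraries. The median log2 difference of the 10 genes was -0.56, against 0.025 over all genes. The receptor-regulated Smad9 showed the largest change of the 10. It read 2.87 and 2.43 FPKM in normoxic Cav1-KO females and 1.57, 1.16 and 0.858 FPKM in hypoxic ones. In males Smad9 read 3.10, 3.14 and 2.96 FPKM in normoxia and 1.36, 1.40 and 1.56 FPKM in hypoxia. All 6 hypoxic libraries lay below all 5 normoxic ones, and Smad9 fell by 1.14 ± 0.13 on the log2 scale (adjusted p = 2.1e-05). The other receptor-regulated SMADs did not go down: Smad1 had a log2 difference of 0.16 ± 0.06 (adjusted p = 0.052) and Smad5 of 0.02 ± 0.05 (adjusted p = 0.80).

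All 4 receptor genes were called lower in hypoxic Cav1-KO lungs. Acvrl1, the endothelial type 1 receptor, read 175 and 165 FPKM in normoxic females, 169, 179.5 and 162 FPKM in normoxic males, 106, 91.4 and 74.1 FPKM in hypoxic females and 120.002, 104 and 107 FPKM in hypoxic males. No value of the hypoxic libraries overlapped the normoxic ones, and Acvrl1 fell by 0.78 ± 0.09 on the log2 scale (adjusted p = 1.5e-05). Bmpr1a, the more widely expressed type 1 receptor, read 12.4 and 13.5 FPKM in normoxic females and 14.2, 13.95 and 14.9 FPKM in normoxic males. In hypoxia it read 10.1, 10.97 and 9.66 FPKM in females and 8.73, 9.73 and 9.34 FPKM in males. Bmpr1a fell by 0.49 ± 0.06 (adjusted p = 2.1e-05), again with no overlap. Bmpr2 fell by 0.63 ± 0.13 (adjusted p = 0.0016) and ranged from 18.2 to 35.6 FPKM in hypoxia against 39.5 to 44.3 FPKM in normoxia. Eng fell by 0.42 ± 0.13 (adjusted p = 0.016).

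Smad4, the shared partner, fell by 0.47 ± 0.08 in hypoxic Cav1-KO lungs (adjusted p = 0.00030), from 25.3 to 29.9 FPKM in normoxia to 16.6 to 21.7 FPKM in hypoxia. The inhibitory Smad6 fell by 0.73 ± 0.25 (adjusted p = 0.025), and its hypoxic libraries were the most scattered, from 16.4 to 65.4 FPKM. Smad7 fell by 0.69 ± 0.15 (adjusted p = 0.0016). The calls of Eng and Smad6 were lost without 1 library: Eng had an adjusted p of 0.074 and Smad6 of 0.097 without female Cav1-KO normoxia replicate 1, and Smad6 just missed the threshold without male Cav1-KO normoxia replicate 2. In females alone, 6 genes were called, all lower (38.2% of all genes were called), and in males alone 7, all lower (55.1% of all genes). Smad9, Acvrl1, Bmpr1a, Bmpr2, Smad4 and Smad7 were called in both. In females Acvrl1 was called in all 5 fits that left out 1 library, Smad9 in 3 of 5 and the other 4 in 2 of 5 each, and in males all 7 were called in 6 of 6.

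With the term for the western blot list in the fit, none of the 10 genes was called in this comparison, beside 1.22% of all genes. Eng and Smad6 had differences of -0.47 ± 0.19 (adjusted p = 0.25) and -0.86 ± 0.35 (adjusted p = 0.23). Bmpr2 had 0.01 ± 0.20, Bmpr1a 0.02 ± 0.12 and Smad4 0.10 ± 0.13, all with an adjusted p from 0.80 to 0.99. Smad9 had -0.36 ± 0.31 (adjusted p = 0.64) and Acvrl1 -0.35 ± 0.19 (adjusted p = 0.40). In that fit the difference in Cav1-KO rests on the other groups to set the size of the list term.

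**Figure D4:**
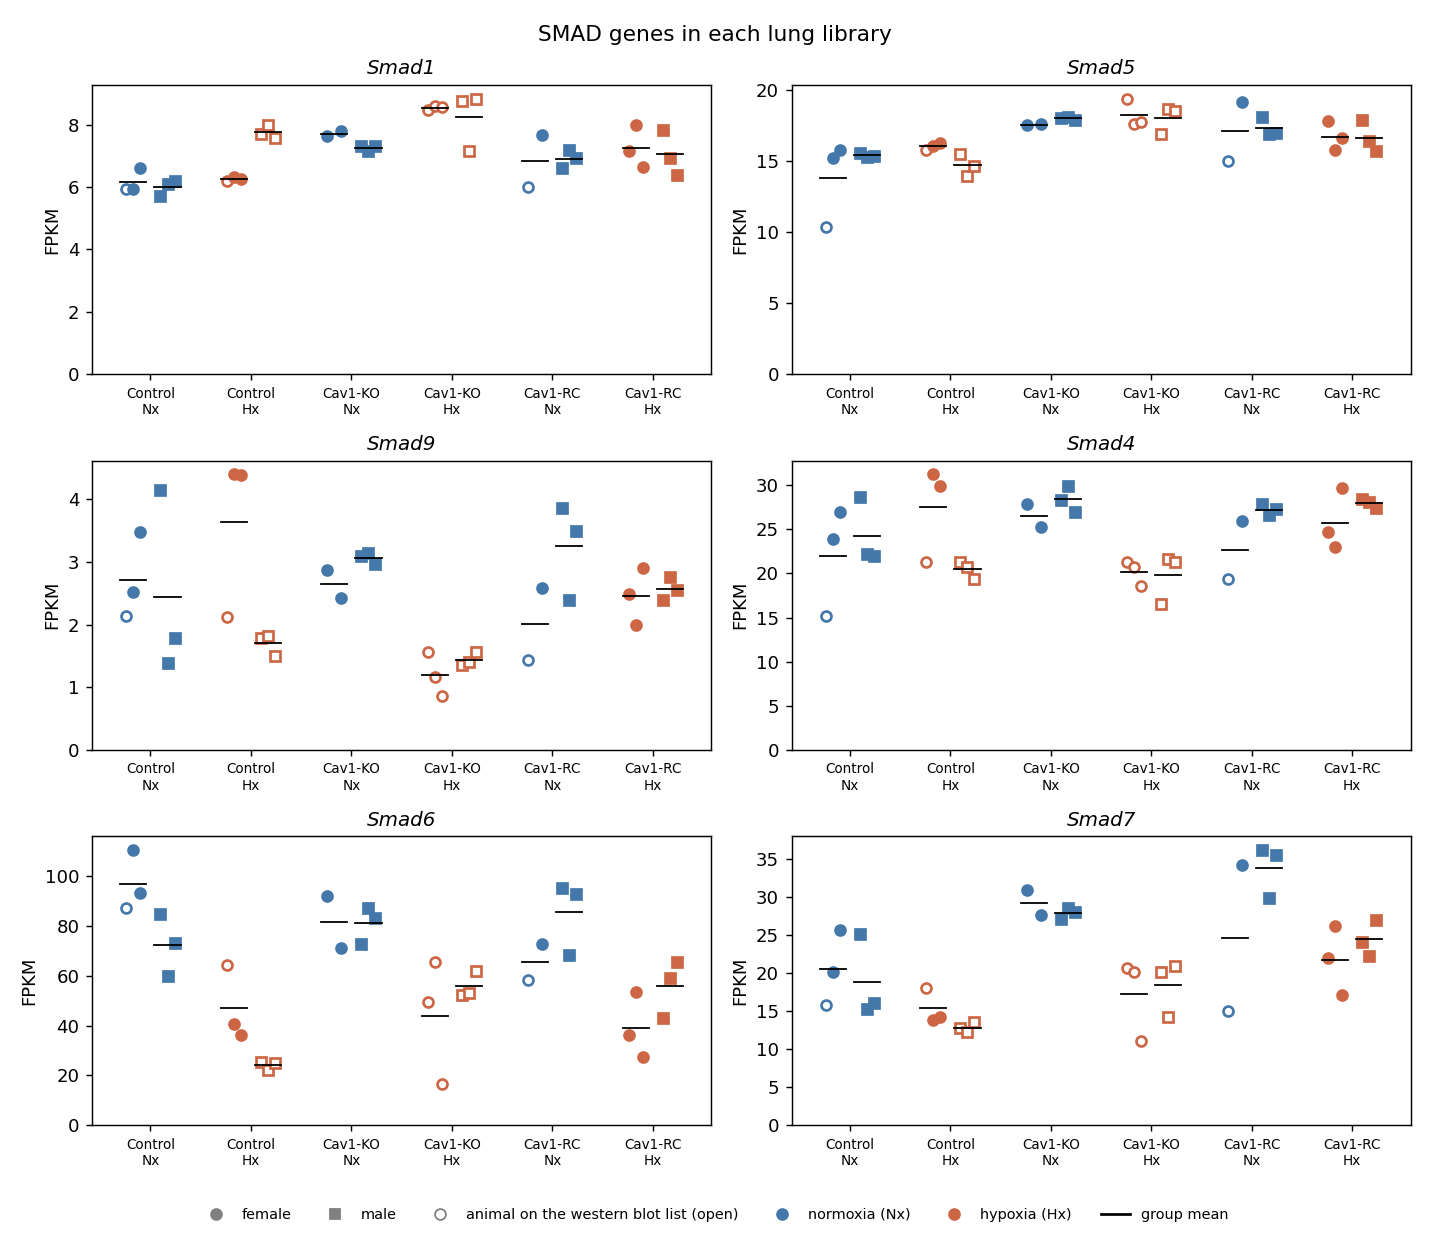
FPKM (vertical axes, from 0) of the 6 SMAD genes in each library, with the same symbols as for the receptor genes: circles for females, squares for males, open for animals on the western blot list, lines for group means. All 6 hypoxic Cav1-KO libraries have Smad9 between 0.858 and 1.57 FPKM, below the 5 normoxic ones at 2.43 to 3.14 FPKM.

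The list term itself was called for 6 of the 10 genes, each lower in listed libraries. Listed libraries were lower by 0.77 ± 0.25 for Smad9 (adjusted p = 0.012), 0.64 ± 0.16 for Bmpr2 (adjusted p = 0.0020), 0.56 ± 0.10 for Smad4 (adjusted p = 0.00012), 0.51 ± 0.10 for Bmpr1a (adjusted p = 0.00014), 0.42 ± 0.15 for Acvrl1 (adjusted p = 0.021) and 0.30 ± 0.08 for Smad5 (adjusted p = 0.0042), on the log2 scale. For all genes, 45.8% were called for the term. Eng (0.05 ± 0.15, adjusted p = 0.82), Smad6 (0.14 ± 0.27, adjusted p = 0.71), Smad1 (-0.12 ± 0.08, adjusted p = 0.25) and Smad7 (-0.34 ± 0.21, adjusted p = 0.19) were not called. In each of the 3 mixed groups, all female, the listed library had the lowest Bmpr2, Bmpr1a, Smad4, Smad5 and Smad9. For Bmpr2 it read 26.4 FPKM against 35.2 and 45.2 FPKM in normoxic Control, 24.2 against 38.8 and 34.2 FPKM in hypoxic Control, and 25.1 against 43.5 FPKM in the normoxic group labelled Cav1-RC. For Smad9 it read 2.13 against 2.52 and 3.48 FPKM, 2.12 against 4.40 and 4.39 FPKM, and 1.43 against 2.58 FPKM in the same groups. What sets the listed libraries apart was not given in the sources used here.

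**Figure D5:**
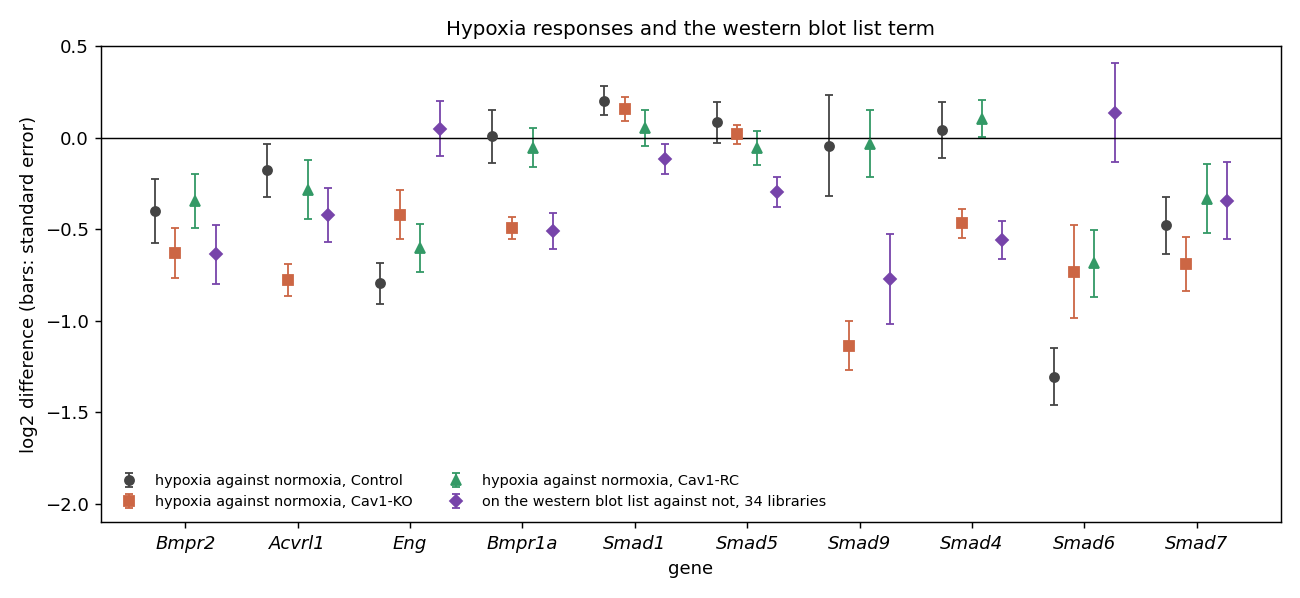
Log2 differences (vertical axis, bars are standard errors) of the 10 genes for hypoxia against normoxia in Control, Cav1-KO and Cav1-RC, and for libraries on the western blot list against the others in 1 fit over 34 libraries. For Bmpr2, Bmpr1a and Smad4 the Cav1-KO difference and the list difference are of like size (-0.63 and -0.64, -0.49 and -0.51, -0.47 and -0.56), whereas for Eng and Smad6 the list difference is 0.05 and 0.14.

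In libraries labelled Cav1-RC, Eng was the only one of the 10 genes called in hypoxia against normoxia, where 2.17% of all genes were called. Eng read 117 and 163 FPKM in normoxic females and 171, 152 and 162 FPKM in normoxic males, against 83.4, 105 and 86.2 FPKM in hypoxic females and 104, 96.3 and 126 FPKM in hypoxic males. The hypoxic libraries of each sex lay below its normoxic ones, and Eng fell by 0.60 ± 0.13 (adjusted p = 0.038). The call was lost in 9 of the 11 fits that left out 1 library (adjusted p from 0.017 to 0.11 over the 11). Smad6 had a difference of -0.69 ± 0.18 (adjusted p = 0.083), also without overlap within either sex. Only 1 of these 11 libraries was on the western blot list. Among the other 10, an alternative chosen after seeing the data, Eng (-0.69 ± 0.12, adjusted p = 0.017), Smad7 (-0.55 ± 0.13, adjusted p = 0.049) and Bmpr2 (-0.50 ± 0.11, adjusted p = 0.0445) were lower, with 3.03% of all genes called. In males alone, Acvrl1 (-0.57 ± 0.11, adjusted p = 0.019), Eng (-0.56 ± 0.11, adjusted p = 0.021) and Smad7 (-0.46 ± 0.10, adjusted p = 0.029) were lower, with 7.89% of all genes called. Of the 3 normoxic libraries labelled male here, replicates 1 and 2 had Xist and no Y chromosome counts. Without them Acvrl1 had -0.70 ± 0.14 (adjusted p = 0.14), Eng -0.57 ± 0.18 (adjusted p = 0.32) and Smad7 -0.53 ± 0.14 (adjusted p = 0.24), with 1 normoxic library left, which is assumed to vary like the others. In females alone, none was called by edgeR, 1 had an unadjusted p under 0.05, and 0.0285% of all genes were called.

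The responses to hypoxia were then compared between genotypes. The response of Cav1-KO was more negative than that of Control for Smad9 (-1.10 ± 0.34, adjusted p = 0.032), Acvrl1 (-0.61 ± 0.18, adjusted p = 0.026) and Bmpr1a (-0.51 ± 0.17, adjusted p = 0.039), with 20.2% of all genes called. For Eng and Smad6 this difference between responses was 0.37 ± 0.18 (adjusted p = 0.14) and 0.57 ± 0.32 (adjusted p = 0.20). The response of libraries labelled Cav1-RC was less negative than that of Cav1-KO for Smad9 (1.10 ± 0.24, adjusted p = 0.0016), Smad4 (0.57 ± 0.13, adjusted p = 0.0021), Bmpr1a (0.44 ± 0.12, adjusted p = 0.0077) and Acvrl1 (0.49 ± 0.19, adjusted p = 0.046), with 42.8% of all genes called. These comparisons share the Cav1-KO libraries, of which the hypoxic ones are all listed. None of these 7 differences was called with the list term. For Cav1-KO against Control, with 4.34% of all genes called, Smad9 had -0.69 ± 0.30 (adjusted p = 0.18), Acvrl1 -0.39 ± 0.18 (adjusted p = 0.22) and Bmpr1a -0.27 ± 0.12 (adjusted p = 0.17). For Cav1-RC against Cav1-KO, with 0.0151% of all genes called, Smad9 had 0.16 ± 0.41, and the sign turned for Acvrl1 (-0.02 ± 0.25), Bmpr1a (-0.20 ± 0.16) and Smad4 (-0.13 ± 0.18), with adjusted p from 0.69 to 0.99. In males all hypoxic and no normoxic libraries of both Control and Cav1-KO are listed, so list membership is the same on both sides of that difference. In males alone, an alternative chosen after seeing the data, with 3.8% of all genes called, the 3 genes were not called: Smad9 had -0.57 ± 0.43 (adjusted p = 0.45), Bmpr1a -0.45 ± 0.14 (adjusted p = 0.089) and Acvrl1 -0.19 ± 0.21 (adjusted p = 0.61). Smad6 was the only one of the 10 genes called there, with a response 1.04 ± 0.19 less negative in Cav1-KO (adjusted p = 0.019), and 0.95 ± 0.20 (adjusted p = 0.020) without the male Control library whose sex genes went against the label. Between the libraries labelled Cav1-RC and Control, none of the 10 responses differed by edgeR's test, 1 had an unadjusted p under 0.05 (Smad6, 0.63 ± 0.25, adjusted p = 0.34), and 0.114% of all genes were called. The fit with the list term called Bmpr1a (-0.46 ± 0.13, adjusted p = 0.026) and Smad5 (-0.38 ± 0.11, adjusted p = 0.029), beside 10.5% of all genes.

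How loss of caveolin-1 alone relates to these genes was read in normoxia, where no Cav1-KO library was listed. Smad1 and Smad7 were higher in Cav1-KO than in Control, with 13.2% of all genes called. Smad1 read 7.62 and 7.80 FPKM in Cav1-KO females and 7.31, 7.15 and 7.32 FPKM in Cav1-KO males, against 5.93, 5.93 and 6.60 FPKM in Control females and 5.71, 6.08 and 6.20 FPKM in Control males. Every Cav1-KO library lay above every Control library, and Smad1 rose by 0.29 ± 0.07 (adjusted p = 0.023). Smad7 read 30.9 and 27.7 FPKM in Cav1-KO females and 27.2, 28.7 and 28.1 FPKM in Cav1-KO males. In Control it read 15.8, 20.2 and 25.8 FPKM in females and 25.1, 15.3 and 16.1 FPKM in males. The groups did not overlap here either, and Smad7 rose by 0.53 ± 0.15 (adjusted p = 0.044). Smad5 also lay higher in all 5 Cav1-KO libraries, at 17.5 to 18.1 FPKM against 10.4 to 15.8 FPKM, with a difference of 0.28 ± 0.11 (adjusted p = 0.10). Among the libraries not on the list, chosen after seeing the data, it was 0.21 ± 0.06 (adjusted p = 0.030). Both calls were near the threshold: leaving out 1 library ended that of Smad1 in 7 of 11 fits (adjusted p from 0.0093 to 0.095) and that of Smad7 in 8 of 11 (adjusted p from 0.0064 to 0.16). In 1 sex alone, none of the 10 genes was called by edgeR in normoxia. In females 0 had an unadjusted p under 0.05 and 0.122% of all genes were called, and in males 4 had an unadjusted p under 0.05 and 11.4% of all genes were called.

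In hypoxia, Smad9 was lower and Smad1 higher in Cav1-KO than in Control, with 14.7% of all genes called. Smad9 read 2.12, 4.40 and 4.39 FPKM in hypoxic Control females, of which the first is listed, and 1.79, 1.82 and 1.49 FPKM in hypoxic Control males. The Cav1-KO values of 0.858 to 1.57 FPKM lay below all of these in females and overlapped them in males. Smad9 fell by 0.94 ± 0.20 (adjusted p = 0.016). Without the libraries whose sex genes went against the label, none of the 10 genes was called in this comparison (Smad9 -0.91 ± 0.25, adjusted p = 0.073), beside 3.46% of all genes. Smad1 rose by 0.26 ± 0.07 (adjusted p = 0.039), and leaving out 1 library ended this call in 10 of 12 fits (adjusted p up to 0.099). Among hypoxic males, whose 3 Control and 3 Cav1-KO libraries are all listed, Smad6 rose by 1.19 ± 0.12 (adjusted p = 0.0052), with 1.6% of all genes called. It read 52.4, 53.0 and 62.0 FPKM in Cav1-KO against 25.5, 22.02 and 25.1 FPKM in Control. Among hypoxic females none of the 10 genes was called by edgeR on these groups alone, 4 had an unadjusted p under 0.05, and 0.808% of all genes were called. Smad6 there read 49.5, 65.4 and 16.4 FPKM in Cav1-KO against 64.3, 40.8 and 36.2 FPKM in Control. The fit with the list term called 2 of the 10 genes in hypoxic females and 1 in hypoxic males, beside 4.34% and 6.98% of all genes.

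Whether endothelial reconstitution shifts these genes was asked by setting Cav1-RC against Cav1-KO. In normoxia none of the 10 genes was called by edgeR, none had an unadjusted p under 0.05, and 9.38% of all genes were called. Without female Cav1-RC normoxia replicate 2, 7 of the 10 genes and 7997 of all genes were called. Among libraries labelled male alone, Smad7 was 0.28 ± 0.08 higher (adjusted p = 0.035), at 36.2, 29.9 and 35.6 FPKM against 27.2, 28.7 and 28.1 FPKM in Cav1-KO, with 12.5% of all genes called. The 36.2 and 29.9 FPKM are of replicates 1 and 2, which had Xist and no Y chromosome counts, and the call held in 1 of 6 fits that left out 1 library. Without both it was 0.34 ± 0.08 (adjusted p = 0.012), with 1 library labelled Cav1-RC left, which is assumed to vary like the others. In females alone none was called or had an unadjusted p under 0.05, and 0.1% of all genes were called. The female group labelled Cav1-RC had 2 libraries, which read 15.1 FPKM of Smad7 (the listed one) and 34.2 FPKM. Without the latter, Smad7 was lower in the libraries labelled Cav1-RC over both sexes (-0.33, adjusted p = 0.0034).

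In hypoxia, 5 of the 10 genes were called between Cav1-RC and Cav1-KO, with 52.6% of all genes called. Smad9 rose by 0.93 ± 0.15 (adjusted p = 0.00028) and read 2.49, 1.99 and 2.90 FPKM in females and 2.39, 2.76 and 2.55 FPKM in males labelled Cav1-RC. Bmpr1a rose by 0.58 ± 0.08 (adjusted p = 7.2e-05), with 14.3, 12.6 and 14.6 FPKM in females and 16.7, 13.7 and 16.3 FPKM in males labelled Cav1-RC. Smad4 rose by 0.42 ± 0.09 (adjusted p = 0.0021), with 22.97 to 29.7 FPKM in the libraries labelled Cav1-RC. For these 3 genes every library labelled Cav1-RC, all unlisted, lay above every Cav1-KO library, all listed. With the list term none of the 3 was called: Smad9 had 0.15 ± 0.31 (adjusted p = 0.82), Bmpr1a 0.06 ± 0.12 (adjusted p = 0.80) and Smad4 -0.15 ± 0.13 (adjusted p = 0.52). That fit called 2 of the 10 genes, Smad1 and Smad5, with 7.98% of all genes called. Acvrl1 rose by 0.32 ± 0.12 (adjusted p = 0.040) and Smad1 fell by 0.24 ± 0.08 (adjusted p = 0.025), and these calls were lost in 9 and 5 of the 12 fits without 1 library. In females alone Bmpr1a (0.42 ± 0.12, adjusted p = 0.041) and Smad9 (1.03 ± 0.26, adjusted p = 0.027) rose, with 20.8% of all genes called. Leaving out 1 library ended the female call of Bmpr1a in 6 of 6 fits (adjusted p up to 0.14) and that of Smad9 in 4 of 6 (adjusted p up to 0.096). In males alone Bmpr1a (0.73 ± 0.11, adjusted p = 0.0010), Smad9 (0.81 ± 0.15, adjusted p = 0.0028) and Smad4 (0.48 ± 0.12, adjusted p = 0.011) rose, with 44.5% of all genes called.

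Against Control, the libraries labelled Cav1-RC had higher Smad7 and Bmpr1a in hypoxia, with 9.06% of all genes called. Smad7 rose by 0.71 ± 0.12 (adjusted p = 0.0066) and read 21.99, 26.3 and 17.1 FPKM in females and 24.1, 22.3 and 27.05 FPKM in males, against 18.1, 13.8 and 14.3 FPKM and 12.8, 12.3 and 13.6 FPKM in Control. The groups overlapped in 1 pair of female libraries only. Bmpr1a rose by 0.35 ± 0.10 (adjusted p = 0.046), and this call was lost in 11 of 12 fits that left out 1 library (adjusted p up to 0.11). Of these libraries, 4 of 6 Control and 0 of 6 Cav1-RC are listed, and with the list term neither gene was called (Smad7 0.44 ± 0.23, adjusted p = 0.24), beside 7.31% of all genes. In males alone, where all Control libraries are listed, 6 genes rose, with 37% of all genes called: Smad6 by 1.19 ± 0.16, Smad7 by 0.91 ± 0.10, Bmpr2 by 0.59 ± 0.10, Smad9 by 0.58 ± 0.15, Bmpr1a by 0.54 ± 0.11 and Smad4 by 0.44 ± 0.08 (adjusted p from 0.00072 to 0.018). None of the 6 was called in males with the list term, beside 0.518% of all genes, and the sign turned for Bmpr2 (-0.07 ± 0.23), Smad9 (-0.21 ± 0.36) and Smad4 (-0.14 ± 0.15), while Smad6 had 1.31 ± 0.41 (adjusted p = 0.14), Smad7 0.55 ± 0.31 (adjusted p = 0.47) and Bmpr1a 0.02 ± 0.14 (adjusted p = 0.98). Smad9 was called in 3 of the 6 fits that left out 1 library and the other 5 genes in all 6. In females alone none was called by edgeR, 1 had an unadjusted p under 0.05, and 0.849% of all genes were called. In normoxia edgeR on the compared groups alone called none of the 10 genes over both sexes (2 with an unadjusted p under 0.05, 3.33% of all genes called), in females (0 with an unadjusted p under 0.05, 0.137% of all genes) or in males (2 with an unadjusted p under 0.05, 4.2% of all genes). Smad7 had the largest difference there, 0.56 ± 0.22 (adjusted p = 0.30). The fit with the list term called 3 over both sexes, 2 in females and 2 in males, beside 11.4%, 2.8% and 4.84% of all genes.

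No difference between females and males was called for any of the 10 genes in the 9 comparisons by edgeR with the low-count filter, nor for any gene at all (0% of all genes). Over the 90 tests, edgeR without the filter called 1 and DESeq2 called 3. At an unadjusted p under 0.05 there were 6 of the 10 genes for Cav1-RC against Control in hypoxia, 5 for Cav1-KO against Control in hypoxia, 2 for Cav1-RC against Control in normoxia, 1 for hypoxia in Cav1-KO and 0 in the other 5. The largest were in hypoxia. For Smad6 the female difference between Cav1-RC and Control was 1.47 ± 0.38 below the male one on the log2 scale (-1.47, adjusted p = 0.19), and for Smad9 the difference between Cav1-KO and Control was lower in females by 1.38 ± 0.40 (-1.38, adjusted p = 0.26). In hypoxic Control, 1 of 3 female and 3 of 3 male libraries are on the western blot list. Sex is by label here. Male Control hypoxia replicate 2, which enters both of these differences, had Xist and Y chromosome genes at 0.435% of the male mean.

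Other genes of the pathway were counted from lists of 14 further receptors, 18 ligands, 15 extracellular antagonists, 21 intracellular regulators and 11 BMP target genes. In Control, hypoxia against normoxia called 1 of the 14 receptors, 1 of 13 ligands tested, 1 of 10 targets tested and no antagonist or intracellular regulator, beside 1.44% of all genes. With the list term it called 1 receptor, 4 ligands, 3 antagonists, 6 intracellular regulators and 2 targets higher and 1 receptor, 1 ligand and 2 targets lower, beside 18.6% of all genes. Msx1, a BMP target and homeobox gene, rose by 1.60 ± 0.15 (adjusted p = 0.00032). Bmp6, a ligand, fell by 1.10 ± 0.16 (adjusted p = 0.0037), and Tgfbr3, the co-receptor betaglycan, which is related to Eng, fell by 0.56 ± 0.12 (adjusted p = 0.047). Msx1 also rose in hypoxic libraries labelled Cav1-RC, by 1.02 ± 0.17 (adjusted p = 0.011). With the list term, 1 receptor, 2 ligands, 3 antagonists and 2 intracellular regulators were called lower there and 1 regulator and 1 target higher, beside 5.95% of all genes. The median log2 difference of the lists in Control lay between -0.17 for the receptors and 0.14 for the targets.

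In Cav1-KO, hypoxia against normoxia called 10 of 14 further receptors lower and 1 higher, 7 of 13 ligands lower and 1 higher, 8 of 12 antagonists lower and 2 higher, and 13 of 20 intracellular regulators lower and 3 higher. Of 10 targets, 5 were higher and 1 lower. For all genes tested in this comparison, 61.7% were called, 5830 higher and 5579 lower, so the share of targets called is near that of all genes. Tgfbr2, the type 2 receptor for TGF-β, fell by 1.31 ± 0.08 (adjusted p = 2.0e-07), as did the ligand Bmp5 (-2.29 ± 0.17, adjusted p = 9.7e-07). Msx1 rose by 1.77 ± 0.16 (adjusted p = 2.5e-06) and Id3, a BMP target, by 0.91 ± 0.12 (adjusted p = 5.5e-05). Of these genes, the list term had the same sign for Tgfbr2, Bmp5 and Id3: -1.41 ± 0.19 for Tgfbr2, -2.27 ± 0.24 for Bmp5 and 0.94 ± 0.18 for Id3 (adjusted p from 5.5e-07 to 0.00012). In the fit with the term, 1 receptor, 1 ligand and 1 target were called higher in hypoxic Cav1-KO lungs and no gene of the 5 lists lower, beside 1.22% of all genes.

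Markers of other cells differed between the same groups, and their part in the results was not tested. In hypoxic Cav1-KO lungs 6 of 7 alveolar type 2 markers and 4 of 8 fibroblast markers were lower than in normoxia and 5 of 14 endothelial markers were higher and 7 lower. Higher there too were 4 of 5 erythroid markers, with sums of 2061.5 to 27595 FPKM against 1752 to 2663 FPKM in normoxia, and 5 of 5 ciliated cell markers. These counts stand beside 61.7% of all genes called, and with the list term none of the alveolar type 2, fibroblast and ciliated cell markers was called, 1 endothelial marker was higher and 2 erythroid markers were higher. The summed endothelial markers were 1224 to 1835 FPKM there against 1281 to 1403 FPKM in normoxic Cav1-KO, and 1307 to 1555 FPKM in hypoxic against 1048 to 1512 FPKM in normoxic Control. In Control, where Eng and Smad6 fell, 1 of 14 endothelial markers was higher in hypoxia and none lower. With the list term 4 of 14 endothelial, 4 of 7 alveolar type 2 and 3 of 4 macrophage markers were higher there and none of these lower, beside 18.6% of all genes. Of 4 neutrophil markers, 3 were higher in hypoxia in each genotype, where Control had 1.44% of all genes called, Cav1-KO 61.7% and Cav1-RC 2.17%. With the list term, Cav1-RC kept a count of 3, Control had 1 and Cav1-KO 0. Markers differed between genotypes too. In normoxia, where Smad1 and Smad7 were higher in Cav1-KO than in Control, 5 of 5 ciliated cell, 5 of 10 smooth muscle, 3 of 4 T cell and 2 of 4 B cell markers were lower, and 4 of 14 endothelial markers were higher and 1 lower, beside 13.2% of all genes. The ciliated cell markers summed to 44.7 to 55.8 FPKM in normoxic Cav1-KO against 81.5 to 166 FPKM in normoxic Control. In hypoxia, 5 of 7 alveolar type 2, 4 of 8 fibroblast, 3 of 10 smooth muscle and 2 of 4 T cell markers were lower in Cav1-KO than in Control. Of 14 endothelial markers 3 were lower and 1 higher, and 4 of 5 erythroid markers were higher, beside 14.7% of all genes. Between Cav1-RC and Cav1-KO in hypoxia, 6 of 7 alveolar type 2 markers were higher and 4 of 5 erythroid markers lower in Cav1-RC, beside 52.6% of all genes. Of 14 endothelial markers, 5 were higher and 5 lower there. With the list term none of the 7 alveolar type 2 markers was called and 5 of 5 erythroid markers were lower, beside 7.98% of all genes. Against Control in hypoxia, Cav1-RC had 7 of 10 smooth muscle markers lower and 3 of 4 neutrophil markers higher, beside 9.06% of all genes.

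Of the remaining genes most like each of the 10 over the 34 libraries, Bmpr2 was nearest to Prkce (r = 0.941), Acvrl1 to Epb41l2 (r = 0.947), Bmpr1a to Arl5a (r = 0.954), Smad1 to Gjc1 (r = 0.84), Smad5 to Celf1 (r = 0.849), Smad9 to Adcy2 (r = 0.928), Smad4 to Usp9x (r = 0.955) and Smad7 to Klhl9 (r = 0.861). The points share groups and list membership. Over the 22 unlisted libraries alone these correlations were 0.914, 0.961, 0.887, 0.808, 0.553, 0.815, 0.857 and 0.837. In the mm10 build, Bmpr2 lies at chr1:59763400-59879014, Acvrl1 at chr15:101128522-101145336, Eng at chr2:32646595-32682669, Bmpr1a at chr14:34410734-34503341, Smad1 at chr8:79338395-79399518, Smad5 at chr13:56703010-56742377, Smad9 at chr3:54755582-54801257 and Smad6 at chr9:63953076-64022059. Where annotated genes overlap, a read can fit either gene, and the counts below do not show how many such reads there were. Eng overlaps Fpgs on the opposite strand, whose counts reached at most 7.03% of those of Eng in a library, and Acvrl1 overlaps an antisense gene with at most 1.05%.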

How the data were processed

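The authors mapped paired reads to mm10 with HISAT2 2.0.5 and counted them with featureCounts 1.5.0-p3 at default settings, and deposited raw counts per gene and FPKM made from them, with poly-A enriched directional libraries from whole lung. At its default, this counting does not use strand, so reads of genes that overlap on opposite strands cannot be told apart. The 10 genes, the gene lists and the tests were chosen with earlier results of these data known. Named genes are the 10, Cav1, up to 3 called genes of each list and comparison with the smallest adjusted p, and the 3 genes most correlated with each of the 10. Counts were tested with edgeR 4.0.16 (TMM, filterByExpr, estimateDisp, glmQLFit, glmQLFTest) in R 4.3.3 on the libraries of the groups compared, with Benjamini-Hochberg adjustment over all genes. Standard errors were derived from each log2 fold change and its F statistic. The study's further threshold, an absolute log2 fold change above 1, was used as an alternative. Other alternatives were DESeq2 1.42.0 (size factors and Wald test), no low-count filter, 1 fit over 34 libraries with or without the list term, a replicate block, limma 3.58.1 on log2(FPKM + 1) and log2(FPKM + 0.1), libraries left out for their sex genes or list membership, males alone for the difference between the responses of Cav1-KO and Control, and each library left out in turn. FPKM is deposited without an error. The fit was also run on simulated counts with fold changes set in advance, and the outcome is not given here. Each library was taken as 1 mouse, and p-values measure the spread between mice of a group. No pair of libraries of a group agreed within sampling noise. Precision rests on the depth given above, from 12425535 to 33343006 counts per library. 1 library of uncertain group entered no comparison.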

Additional observations from a re-analysis of the deposited data

Results flagged for a closer look

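The change of Acvrl1, Bmpr1a and Smad9 with hypoxia differed between Cav1-KO and Control by -0.61, -0.51 and -1.10 on the log2 scale in the test of the difference itself. Between libraries labelled Cav1-RC and Cav1-KO, the changes of Acvrl1, Smad4, Bmpr1a and Smad9 differed by 0.49, 0.57, 0.44 and 1.10. All 6 hypoxic Cav1-KO libraries and none of the normoxic ones are on the western blot list, and with the list term none of these 7 differences was called. The library of uncertain group, which no comparison used, had 8.48 FPKM of Smad1 and 18.6 FPKM of Smad5, above all 12 Control libraries, which reached 7.996 and 16.3 FPKM.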

How the results depend on the processing

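Of the 10 genes over both sexes, Eng and Smad6 in hypoxic Control lungs were called in every fit that left out 1 library, and in each alternative, except that Eng missed the log2 threshold of 1. The largest changes came with the western blot list term, which left 0 genes called for hypoxia in Cav1-KO (8 without it), 2 for Cav1-RC against Cav1-KO in hypoxia (5), 0 for Cav1-RC against Control in hypoxia (2), 6 for hypoxia in Control (2), 2 for hypoxia in Cav1-RC (1) and 3 for Cav1-RC against Control in normoxia (0). It also left 4 for Cav1-KO against Control (1), 2 for Cav1-RC against Cav1-KO (6) and 5 for hypoxia (19) in females and males separately, and 2 between genotypes (7), both for Cav1-RC against Control, where none was called without it. It reversed Acvrl1 (-0.11) and Smad4 (-0.15) for Cav1-RC against Cav1-KO in hypoxia, and Bmpr1a (-0.10 in females) and Smad4 (-0.0805 in males) within 1 sex. Against Control in hypoxia it reversed Bmpr1a (-0.0115) over both sexes, and Bmpr2 (-0.0661), Smad9 (-0.21) and Smad4 (-0.14) in males. For hypoxia in Cav1-KO it reversed Bmpr2 (0.0125), Bmpr1a (0.0199) and Smad4 (0.10) over both sexes, Bmpr1a (0.17) and Smad4 (0.16) in females, and Bmpr2 (0.12) and Smad4 (0.0335) in males. Between the responses of Cav1-RC and Cav1-KO it reversed Acvrl1 (-0.0215), Bmpr1a (-0.20) and Smad4 (-0.13). For all genes, this term took the calls for hypoxia in Cav1-KO from 11409 to 242, and in Control from 267 to 3689. The cause was not tested.

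Cav1-KO against Control called 2 genes in normoxia and 2 in hypoxia, and 1 in each without the low-count filter, with the replicate block or by limma on log2(FPKM + 1). Limma on log2(FPKM + 0.1) called 1 in normoxia, DESeq2 called 4 in hypoxia, and 0 were called in hypoxia without the libraries whose sex genes go against the label. Cav1-RC against Control in hypoxia called 1 with DESeq2 size factors, no filter, the block, limma at either pseudocount or without those libraries. Hypoxia in Cav1-RC called 2 without the filter or by DESeq2, 0 with the block, limma at either pseudocount or without those libraries, and 3 among unlisted libraries, where Cav1-RC against Cav1-KO in normoxia called 2 in place of 0. Limma on log2(FPKM + 1) called 3 for Cav1-RC against Cav1-KO in hypoxia, and 1 fit over 34 libraries called 1 for Cav1-RC against Control in normoxia. These stood beside 26.9% and 5.2% of all genes. For hypoxia in Cav1-RC the share of all genes called moved too: 4.01% without the filter, 2.8% by DESeq2 and 1.56% with the block. It was 0.287% and 0.957% by limma on log2(FPKM + 1) and log2(FPKM + 0.1), against 2.17% in the first test. Requiring an absolute log2 fold change above 1 left 1 gene for hypoxia in Control (Smad6) and 1 in Cav1-KO (Smad9), and 0 in the other comparisons over both sexes. In 1 sex, it left 1, 1 and 3 genes for Cav1-RC against Cav1-KO, Cav1-RC against Control and hypoxia. There Cav1-KO against Control called 6 without the filter, 8 by DESeq2 and 5 in 1 fit over 34 libraries. Cav1-RC against Control called 3 in 1 fit, Cav1-RC against Cav1-KO 3 by limma at either pseudocount, and hypoxia 10 and 12 by limma and 12 without the libraries whose sex genes go against the label. Differences between the sexes called 1 without the filter and 3 by DESeq2, and between genotypes 3 without those libraries.

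Leaving out 1 library gave 0 to 4 genes for Cav1-KO against Control in normoxia and 1 to 6 in hypoxia, 0 to 7 for Cav1-RC against Cav1-KO in normoxia and 3 to 5 in hypoxia, 1 to 2 for Cav1-RC against Control in hypoxia, 6 to 9 for hypoxia in Cav1-KO and 0 to 3 in Cav1-RC. The 7 came without female Cav1-RC normoxia replicate 2, where Smad7 reversed to -0.33 (0.25 without replicate 1). The 4 came without female Control normoxia replicate 3, the 6 without female Control hypoxia replicate 1, and the 3 for hypoxia in Cav1-RC without female Cav1-RC normoxia replicate 1. The number of all genes called moved too: leaving out 1 library gave 982 genes (without female Cav1-KO normoxia replicate 1) to 5204 (without female Control normoxia replicate 3) for Cav1-KO against Control in normoxia, and 920 (without female Control hypoxia replicate 3) to 8322 (without replicate 1) in hypoxia. It gave 726 to 7997 and 8579 to 9896 for Cav1-RC against Cav1-KO, 411 to 688 and 571 to 1853 for Cav1-RC against Control, in the same order, and for hypoxia 129 to 853 in Control, 10055 to 11573 in Cav1-KO and 166 to 955 in Cav1-RC. In 1 sex the ranges for the 10 genes were 1 to 9, 4 to 12, 5 to 12 and 14 to 20. The replicate numbers do not pair the mice: of 13 comparisons with 3 pairs, 0 had every pair's deviations correlated above 0.1. Depth limits Smad9 most, with 104 to 589 counts per library.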

Other observations

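The library of uncertain group had 30930450 counts. Its values of all 10 genes, Smad1 and Smad5 included, lay within the range of the 34 libraries. Those not given above were 32.6 FPKM of Bmpr2, 108 FPKM of Acvrl1, 125 FPKM of Eng, 9.67 FPKM of Bmpr1a, 1.55 FPKM of Smad9, 17.9 FPKM of Smad4, 49.7 FPKM of Smad6 and 20.9 FPKM of Smad7. Cav1 was 1.34 FPKM, below the 284 to 394 FPKM of the Control libraries.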
